A study of Rattus norvegicus with 156 samples.

Results

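Dorsal root ganglia (DRG) on the injured side of rats with ligated spinal nerves were set against the ganglia of the opposite side of the same treatment and level. The samples were the L5 and L6 DRG whose titles name spinal nerve ligation (SNL) or SNL with gabapentin (GPN), which gave 4 ipsilateral (ipsi) and 4 contralateral (contra) RNA pools, 8 of the 52 samples of the series and 24 of its 156 arrays. Each sample was 1 pool of total RNA from 4 to 6 rats and was hybridised to the 3 Affymetrix rat U34 arrays A, B and C, whose probe sets were joined. In the ligated rats the L5 and L6 spinal nerves of 1 side had been tied, which leaves the nerve of L4 intact. Ligated rats entered the study only if their paw withdrawal threshold on the injured side was clearly reduced when tested on days 12 to 14 after surgery. They then received 0.9% saline (SNL) or GPN at 100 mg/kg (SNL with GPN) into the peritoneum once a day for 7 days, and tissue was taken 19 to 21 days after surgery. Each group held 8 to 12 rats, and 1 of its pools was arrayed. Rats without ligation, which give the background here, were naive (no surgery), naive with GPN, or sham-operated, in which the nerves were exposed but not tied. The labels give 7 days of treatment for these groups too, with GPN at 100 mg/kg for naive with GPN and no GPN for naive and sham. The 4 unligated pairs with both sides measured were naive L5, naive with GPN L6, sham L5 and sham L6. For naive rats, which had no surgery, the sides are only named as such. Pools were paired by treatment and level, as SNL L5, SNL L6, SNL with GPN L5 and SNL with GPN L6, and values are listed in that order throughout. The labels do not say whether L5 and L6 of 1 treatment came from the same rats, so the 4 pairs are at most 4 and at least 2 independent sets of animals.

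A DRG holds the cell bodies of the sensory neurons of 1 spinal level. Each cell body is wrapped in satellite glia, and its axon, with its Schwann cells, runs through the spinal nerve. Small neurons called nociceptors signal painful stimuli, release peptides such as CGRP and substance P, and carry their own sodium channels, while large neurons with myelinated axons carry touch and limb position. When a spinal nerve is tied, the axons beyond the knot are lost. The cut-off neurons are known to turn on a programme of injury and growth genes and to turn down many genes of normal transmission, and macrophages are known to gather in the ganglion. Gabapentin binds the alpha2delta subunit of voltage-gated calcium channels, the product of Cacna2d1.

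The pools carried the RNA of sensory ganglia on both sides. Nefl, a neurofilament subunit, averaged 1709 ± 379.8 in ipsi and 4603 ± 419 in contra pools (SD, n = 4 each, signal intensity). Pmp22, a protein of peripheral myelin, averaged 5383 ± 701 in ipsi and 4912 ± 548 in contra pools. Mobp, a myelin gene of the central nervous system, averaged 41.03 ± 3.95 in ipsi and 64.5 ± 30.5 in contra pools. As deposited, arrays of the DRG pools differed in brightness, with 2% trimmed means up to 4.64-fold apart on array B, and were therefore quantile normalized. RNA integrity, read as the ratio of the 3' to the 5' GAPDH probe set, was 1.09 to 1.23 in ipsi and 1.12 to 1.31 in contra pools, and its part in the results was not tested. In a pool of whole ganglia, fewer cells of a type and less RNA per cell cannot be told apart. With 1 array of each set per pool, precision is set by how few pools there were. In tests of the sides, p-values measure the spread of the side difference between pairs, and L5 and L6 pairs of 1 treatment may share rats.

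The sides differed in 4165 of the 16155 probe sets tested (25.8%), of which 2202 were higher and 1963 lower in ipsi pools (limma with the pair as a block, adjusted p under 0.05). By gene, 1206 of 8441 were higher (14.3%) and 1070 lower (12.7%). These shares are the background for the ipsi against contra counts of every gene list below. They are not the background for list counts against unligated rats or under other settings. The signals of all 4 ipsi pools lay above those of all 4 contra pools for 1210 genes (14.3%) and below them for 1186 (14.1%). Of the genes past the threshold, 322 rose and 210 fell by over 2-fold, and 52 rose and 22 fell by over 4-fold. The same test in the 4 unligated pairs passed 0 of 16019 probe sets (0%), where limma gave 944 with an unadjusted p under 0.05 and a lowest adjusted p of 0.696. The difference itself, the side difference of ligated minus that of unligated rats, passed for 1741 of 17451 probe sets (9.98%), and for 473 of 8885 genes upward (5.32%) and 487 downward (5.48%). The shares of 5.32% and 5.48% are the background for list counts in the test against unligated rats. Shares by gene under other settings are not given here. With the signals left at their deposited scaling, the ligated minus unligated difference passed for 277 probe sets, 171 upward and 106 downward.

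**Figure D1:**
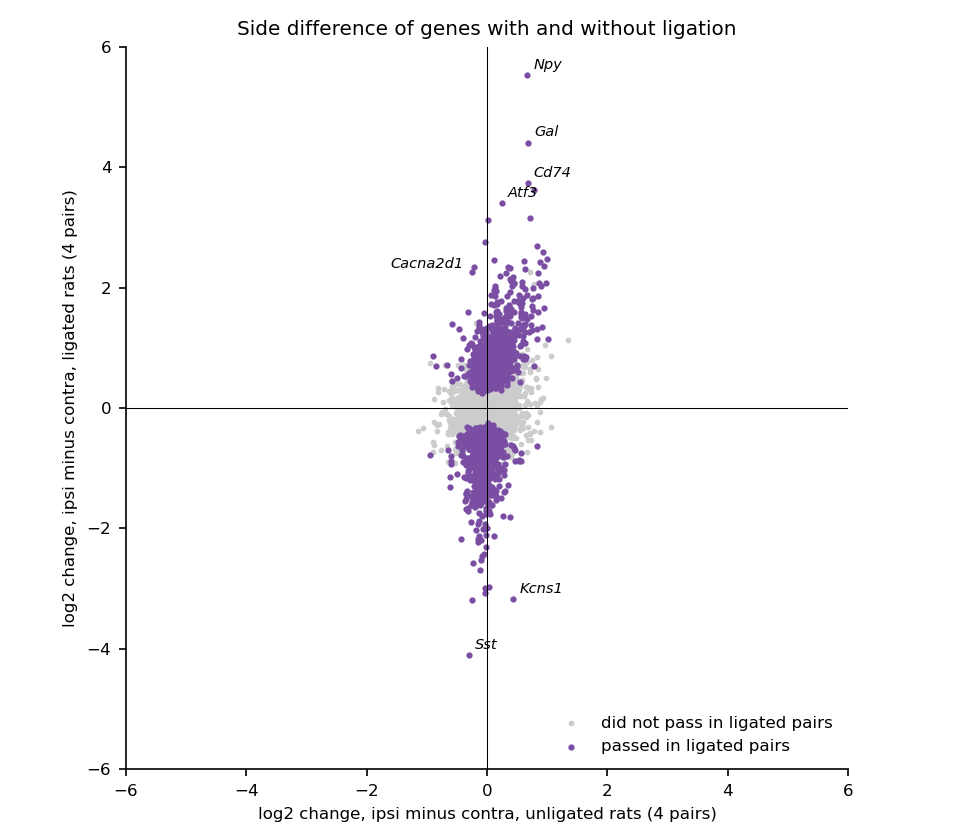
Each point is a gene. The x axis gives the log2 change of ipsi minus contra L5 and L6 DRG in unligated rats (4 pairs), the y axis the same in ligated rats (4 pairs), and purple points passed the threshold in ligated rats. The points spread along the y axis, with Npy at 5.54 and Sst at -4.10, and among the purple points the largest change in unligated rats was 1.015 either way.

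Neuropeptides that sensory neurons are known to switch on after axon injury were among the most strongly raised groups. Of 6 tested, 5 were higher in ipsi pools and 1 was lower, with a median log2 change of 3.00 beside -0.02 over all 8441 genes tested. That median was 1.397 at the deposited scaling, 1.58 with no filter on low signals and 1.54 with quantile normalization over the 8 pools, each over 7 tested genes of which 6 were higher. In these 3 settings it lay below the median of the MHC class II genes (1.93, 1.78 and 2.06 in that order). In the test against unligated rats 5 of 6 were higher and 1 lower. Npy encodes neuropeptide Y, a transmitter of sympathetic neurons that healthy sensory neurons hardly make. Its signal was 1687, 2794, 1944 and 2665 in the ipsi pools, against 48.9, 43.6, 22.0 and 65.03 in the contra pools. The groups stood apart with no overlap, and the lowest ipsi pool exceeded the highest contra pool many times over (log2 change 5.54 ± 0.18 SE, adjusted p = 1.63e-06, 46.4-fold). Vip encodes vasoactive intestinal peptide, which widens blood vessels. Vip had 247, 442, 313 and 386 in ipsi and 2.69, 1.88, 4.48 and 6.06 in contra pools (log2 change 5.13 ± 0.18 SE, adjusted p = 2.52e-06). The contra values lie near the lowest signals of the array, where folds on the log2(signal + pseudocount) scale used here are smaller than the ratios of the signals. Gal, the peptide galanin, had 731, 1022, 793 and 1133 in ipsi pools and 31.5, 47.7, 33.4 and 37.01 in contra pools (log2 change 4.41 ± 0.12 SE, adjusted p = 1.15e-06). For all 3 peptides the L6 ipsi pool exceeded the L5 ipsi pool of the same treatment, and the L5 minus L6 difference passed for none of them (limma, lowest adjusted p of the 3 0.772). Vgf, the precursor of several secreted peptides, had 318, 464, 336 and 603 in ipsi and 127, 132, 129 and 153 in contra pools (log2 change 1.58 ± 0.13 SE, adjusted p = 0.000131). Adcyap1, which encodes the peptide PACAP, also rose, by a log2 change of 1.34. Crh, corticotropin-releasing hormone, was the member that fell (-1.404). In unligated rats Npy averaged 115 ± 52.5 on the ipsi and 66.1 ± 10.8 on the contra side (SD, n = 4 each).

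Promoters of the leading genes were taken from RefSeq (GRCr8, 250 bases before to 50 after the gene start) because these genes moved together. The table held 11 promoters of 10 of the 14 most raised genes and 14 promoters of 11 of the 14 most lowered genes. The letters searched, on both strands, were TGANTCA (the AP-1 motif of Fos, Jun and ATF3 dimers), TGACGTCA (the cAMP response element, CRE) and TGACG (its shorter form, which every full CRE holds). TGANTCA was in 0 of the 11 promoters of raised genes, in 1 of the 14 of lowered genes and in 7.33% of all 33469 promoters. TGACGTCA was in 0 of the 11, 1 of the 14 and 1.83% of all. TGACG was in 3 of the 11, those of Vip, Gal and 1 of the promoters of Tslp, in 1 of the 14, and in 21.2% of all. The 3 neuropeptide promoters and that of Sst, the most lowered gene, are shown with TGACG or TGACGTCA in capitals. A match is a run of letters in this window and not a measured binding site. The window of Npy lies at chr4:80211861-80212160, plus strand, that of Vip at chr1:44470230-44470529, plus strand, that of Gal at chr1:210084523-210084822, minus strand and that of Sst at chr11:90461296-90461595, plus strand.
Npy: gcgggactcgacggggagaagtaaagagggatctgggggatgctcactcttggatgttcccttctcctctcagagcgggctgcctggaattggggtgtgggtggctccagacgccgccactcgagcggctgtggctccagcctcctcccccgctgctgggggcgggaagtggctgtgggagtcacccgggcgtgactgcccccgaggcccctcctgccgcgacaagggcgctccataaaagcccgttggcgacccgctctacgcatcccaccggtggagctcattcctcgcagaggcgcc
Vip: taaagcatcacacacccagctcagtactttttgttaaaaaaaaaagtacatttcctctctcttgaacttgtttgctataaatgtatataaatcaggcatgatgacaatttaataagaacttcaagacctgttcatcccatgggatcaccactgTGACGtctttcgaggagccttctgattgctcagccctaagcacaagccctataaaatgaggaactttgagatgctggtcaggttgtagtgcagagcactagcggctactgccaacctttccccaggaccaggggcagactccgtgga
Gal: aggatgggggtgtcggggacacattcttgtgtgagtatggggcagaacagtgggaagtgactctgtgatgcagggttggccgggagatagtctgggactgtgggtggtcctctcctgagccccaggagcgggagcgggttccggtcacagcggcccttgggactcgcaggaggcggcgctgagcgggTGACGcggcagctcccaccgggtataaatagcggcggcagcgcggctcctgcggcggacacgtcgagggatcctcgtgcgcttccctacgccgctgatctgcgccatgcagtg
Sst: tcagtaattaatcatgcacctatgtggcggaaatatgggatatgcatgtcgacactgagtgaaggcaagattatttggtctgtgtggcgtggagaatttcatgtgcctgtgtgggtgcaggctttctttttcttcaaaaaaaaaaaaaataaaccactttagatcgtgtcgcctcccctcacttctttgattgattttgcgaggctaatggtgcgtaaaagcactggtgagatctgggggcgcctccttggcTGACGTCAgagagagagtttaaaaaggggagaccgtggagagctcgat

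The Vip window holds TGACG 97 bases before the gene start and the Gal window 63 bases before it, while the Npy window, with the largest rise, holds none. The Sst window holds a full CRE just after the annotated start.

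Genes tied to axon regrowth were mostly higher: 16 of 26 tested were higher in ipsi pools and 1 was lower, with a median log2 change of 0.74. In the test against unligated rats 14 of 28 were higher and 0 lower. Atf3, a stress-induced transcription factor used as a mark of axotomised neurons, had a signal of 445, 608, 471 and 695 in ipsi pools, against 47.5, 39.4, 48.9 and 50.4 in contra pools. Both sides were tight and far apart (log2 change 3.40 ± 0.14 SE, adjusted p = 6.43e-06), and in unligated pairs Atf3 was 60.5, 42.2, 92.9 and 57.6 on the ipsi and 51.9, 55.5, 52.1 and 43.9 on the contra side, in the order naive L5, naive with GPN L6, sham L5 and sham L6. Jun, a partner of ATF3 in AP-1 dimers, had 588, 467, 597 and 469 in ipsi and 136, 127, 170.1 and 131 in contra pools (log2 change 1.87 ± 0.10 SE, adjusted p = 2.75e-05). Gap43, a growth cone protein, had 1098, 1409, 1249.8 and 1513 in ipsi and 524, 541, 483 and 595 in contra pools (log2 change 1.28 ± 0.09 SE, adjusted p = 6.37e-05). Gadd45a, a protein of the DNA damage response, had 464, 711, 496 and 521 in ipsi and 90.04, 112, 136 and 118 in contra pools. Its log2 change was 2.20, with the groups fully apart. Csrp3, a LIM protein known from muscle, had 129, 228, 183 and 223 in ipsi and 34.9, 18.9, 22.9 and 17.03 in contra pools. Kif22, a kinesin of mitotic chromosomes, had 413, 536, 344 and 389 in ipsi and 27.95, 46.7, 52.7 and 52.3 in contra pools. Reg3b, a secreted lectin, had 81.5, 30.3, 110.2 and 117 in ipsi pools, lowest at SNL L6, and 1.72, 2.52, 2.37 and 13.5 in contra pools. Tubb3, Stmn2 and L1cam, which neurons express at all times, had log2 changes of 0.04, 0.15 and 0.02 and did not pass. Dpysl2, a protein that shapes growth cones, was the member that fell (-0.28, limma adjusted p = 0.0467). That call was lost without any 1 of the 4 pairs, at the deposited scaling and with median scaling, where the list had 0 lower.

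Among the other genes of the 14 largest rises, Tslp, an epithelial cytokine, had 40.2, 67.99, 54.4 and 62.5 in ipsi and 1.15, 1.03, 0.989 and 1.14 in contra pools (log2 change 3.08 ± 0.23 SE, adjusted p = 8.28e-05). Slpi, an inhibitor of leukocyte proteases, had 56.1, 80.2, 64.4 and 52.3 in ipsi and 2.804, 4.51, 3.64 and 2.26 in contra pools (log2 change 2.86 ± 0.19 SE, adjusted p = 5.28e-05). Tgm1, a transglutaminase of the skin barrier, had 38.6, 62.3, 39.98 and 85.95 in ipsi and 3.62, 2.52, 1.68 and 1.104 in contra pools. The contra signals of these 3 genes lay at or below the pseudocounts of 4.5 to 6.2. Genes entered the test only with a signal above the array's 40th percentile in 4 or more pools. These 3 therefore entered through their 4 ipsi pools alone, and the lack of overlap between their 2 groups was fixed by that filter. Cdc42se2, a small effector of the GTPase CDC42, had 73.5, 106, 100.3 and 118 in ipsi and 7.99, 16.1, 6.18 and 9.700 in contra pools.

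**Figure D2:**
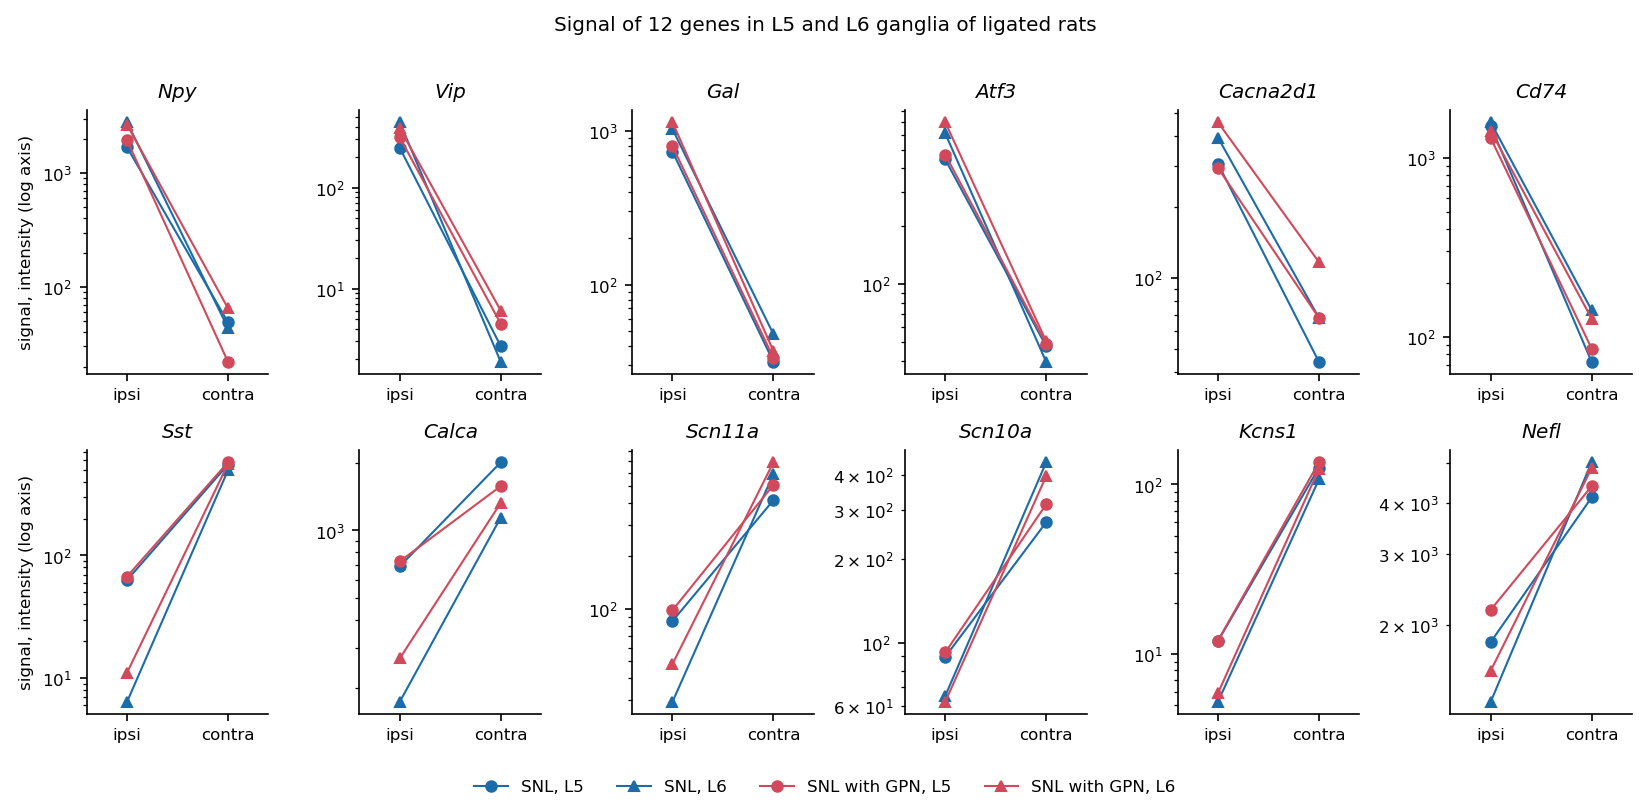
Signal (log axis, each panel with its own range) of 12 genes in the ipsi and contra pools of ligated rats, with a line joining the 2 sides of 1 treatment and level. Npy, Vip, Gal, Atf3, Cacna2d1 and Cd74 were higher and Sst, Calca, Scn11a, Scn10a, Kcns1 and Nefl lower in all 4 ipsi pools. For each of these lowered genes the L6 ipsi pools lay below the L5 ipsi pools. The filter on low signals fixed the order of the sides for Vip, and very likely for Kcns1.

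Peptides and markers of uninjured nociceptors moved the other way. Of the nociceptor peptides, 6 of 8 tested were lower in ipsi pools and 0 higher (median log2 change -1.63). Of the nociceptor markers, 8 of 12 were lower and 0 higher (median -0.87). Against unligated rats 6 of 10 peptides and 7 of 13 markers were lower. Sst encodes somatostatin, which quiets neighbouring neurons. Its signal was 62.98, 6.42, 67.4 and 11.1 in ipsi pools, against 551, 494, 574 and 556 in contra pools (log2 change -4.10 ± 0.39 SE, adjusted p = 0.000215). The ipsi values split by level into higher L5 and lower L6 pools while the contra values stayed within a narrow band. Calca, the gene of CGRP and calcitonin, had 693, 173, 729 and 270.5 in ipsi and 2008, 1141, 1574 and 1326 in contra pools (log2 change -1.89 ± 0.22 SE, adjusted p = 0.000595). Tac1, which encodes substance P, fell by 1.38 on the log2 scale and Calcb, the second CGRP gene, fell by 1.51. Nmb, neuromedin B, had 60.8, 38.01, 64.7 and 43.01 in ipsi and 191, 193, 167 and 173 in contra pools. Scg2, a protein of secretory granules, had 115, 51.6, 134 and 53.01 in ipsi and 412, 421, 254 and 500.2 in contra pools (log2 change -2.17 ± 0.32 SE, adjusted p = 0.00168).

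Among the markers, Htr3a, a serotonin-gated ion channel, had 127, 57.7, 132 and 66.2 in ipsi and 435, 635, 471 and 675 in contra pools (log2 change -2.52 ± 0.28 SE, adjusted p = 0.000415). Trpv1, the receptor for capsaicin and heat, had 34.2, 32.04, 41.8 and 43.5 in ipsi and 106, 141, 99.6 and 152 in contra pools (log2 change -1.57 ± 0.15 SE, adjusted p = 0.000249). Both genes had every ipsi pool below every contra pool. P2rx3, an ATP-gated channel of nociceptors, fell by 0.86 on the log2 scale. Prph, a filament of small neurons, had a log2 change of -0.21 and did not pass (adjusted p = 0.0793), and Asic3, an acid-sensing channel, had -0.23.

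Ion channels had members that passed downward in the sodium, potassium and calcium channel families and 1, Cacna2d1, that passed upward. Of the sodium channel genes, 6 of 9 were lower in ipsi pools and 0 higher, with a median log2 change of -0.87, against 0 higher and 5 lower of 10 in the test against unligated rats. Scn11a (Nav1.9), a channel of nociceptors, had 85.1, 29.4, 98.1 and 48.3 in ipsi and 417, 589.5, 511 and 687 in contra pools (log2 change -3.07 ± 0.30 SE, adjusted p = 0.000224). Scn10a (Nav1.8), which carries most of the nociceptor action potential, had 89.5, 64.9, 92.8 and 61.9 in ipsi and 270.5, 443, 314 and 395 in contra pools (log2 change -2.12 ± 0.20 SE, adjusted p = 0.000201). Scn1a (Nav1.1), found mainly in larger neurons, had 21.4, 17.3, 28.5 and 24.2 in ipsi and 167, 143, 164 and 129.8 in contra pools (log2 change -2.46 ± 0.14 SE, adjusted p = 3.46e-05). For these 3 channels the 2 sides did not overlap. Scn9a (Nav1.7) fell by 0.61 and the auxiliary subunit gene Scn4b by 0.87 on the log2 scale, and Scn8a (Nav1.6) had 30.3, 11.4, 22.3 and 24.8 in ipsi and 51.8, 43.1, 63.7 and 42.1 in contra pools. Scn3a (Nav1.3), a channel of embryonic neurons, had a log2 change of 0.14 and did not pass (adjusted p = 0.482).

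Of the potassium channel genes, which set resting potential and end action potentials, 15 of 30 were lower in ipsi pools and 0 higher (median -0.63). Against unligated rats 11 of 34 were lower. Kcns1, a modulatory subunit that does not conduct alone, had 11.9, 5.22, 12.00 and 5.88 in ipsi and 125, 107, 135 and 123 in contra pools (log2 change -3.17 ± 0.16 SE, adjusted p = 2.38e-05). Kcnd3, a channel of the fast transient A current, had 4.83, 2.45, 2.04 and 1.84 in ipsi and 46.6, 64.2, 46.8 and 96.6 in contra pools (log2 change -2.97 ± 0.27 SE, adjusted p = 0.000176). For both genes all 4 ipsi pools lay below all 4 contra pools. Ipsi signals of Kcnd3 were so low that it entered the test through its contra pools alone, which fixed this order. Kcnab1, a cytoplasmic beta subunit, had 28.04, 28.6, 27.02 and 27.2 in ipsi and 104, 99.04, 116 and 138 in contra pools, and Kcns3, another modulatory subunit, had 48.9, 44.6, 49.1 and 48.9 in ipsi and 168, 188, 162 and 128 in contra pools. Further members that fell were Kcnd1 (-1.45), Kcnc1 (-1.31), Kcnc2 (-1.30), Kcnip2 (-1.22) and Kcnab2 (-1.08).

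Calcium channel genes had 1 of 11 higher, 2 lower and a median of -0.31, beside 14.3% of all genes higher and 12.7% lower. Against unligated rats the count was 1 higher and 0 lower of 12, and without the SNL with GPN L6 pair 4 were lower. The one that rose was Cacna2d1, which had 306, 395, 294 and 458 in ipsi pools, against 44.2, 67.96, 67.9 and 117 in contra pools. Every ipsi pool lay above every contra pool, by 4.77-fold in the fit (log2 change 2.25 ± 0.14 SE, adjusted p = 4.51e-05). In unligated pairs Cacna2d1 was 73.6, 75.6, 84.6 and 50.01 on the ipsi and 75.2, 105, 68.5 and 90.6 on the contra side, and the difference from ligated rats passed (adjusted p = 0.000269). Its side difference with GPN minus that with vehicle was -0.57 on the log2 scale, which did not pass (adjusted p = 0.899). Cacna1h, a low-threshold T-type channel, had 8.12, 17.3, 7.55 and 10.6 in ipsi and 19.3, 40.3, 21.8 and 51.9 in contra pools (log2 change -1.18 ± 0.23 SE, adjusted p = 0.00696). Cacna1b, the N-type channel at sensory terminals, had a log2 change of -0.30 and did not pass (adjusted p = 0.119).

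The fall was not limited to nociceptor genes. Of the markers of large-fibre neurons, 10 of 13 were lower and 0 higher in ipsi pools, with a median log2 change of -0.996, against 0 higher and 7 lower of 13 in the test against unligated rats. All 3 neurofilament subunits, which give large axons their width, fell, with log2 changes of -1.45 for Nefl, -1.251 for Nefh and -1.20 for Nefm. Nefl had 1817, 1295, 2181 and 1545 in ipsi and 4122, 5030.4, 4393 and 4866 in contra pools (adjusted p = 0.000286). Calb2, the calcium buffer calretinin, had 42.6, 47.4, 43.8 and 41.2 in ipsi and 156, 132, 152 and 127 in contra pools (log2 change -1.57 ± 0.12 SE, adjusted p = 9.62e-05). Pvalb, parvalbumin, a buffer of proprioceptive neurons that fast muscle also makes, had 88.8, 18.2, 593 and 40.4 in ipsi and 365, 264, 409 and 312 in contra pools. The SNL with GPN L5 pool stood above every contra pool, so the sides overlapped, and Pvalb lost its call without the SNL L6 pair (log2 change -1.41, adjusted p = 0.115), without the SNL with GPN L6 pair (-1.64, adjusted p = 0.111) and without the SNL L5 pair (-1.915, adjusted p = 0.0703). Muscle transcripts were high in that same pool, as given below.

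Among pan-neuronal markers 8 of 15 were lower and 1, Gap43, higher (median -0.55), against 1 higher and 6 lower of 15 in the test against unligated rats. Rbfox3, which encodes the nuclear antigen NeuN, had 239.9, 187, 267 and 182 in ipsi and 836, 822, 734 and 604 in contra pools (log2 change -1.75 ± 0.12 SE, adjusted p = 5.28e-05). Uchl1, an abundant neuronal enzyme, averaged 2825 ± 217 in ipsi and 3399 ± 483 in contra pools and did not pass (log2 change -0.26, adjusted p = 0.11). Eno2 (-0.28), Stmn3 (-0.15) and Elavl3 (-0.18), also general neuronal genes, did not pass. The summed signal of the list was 12039.8 to 14044 in ipsi and 17037 to 18850.0 in contra pools. Genes of synaptic vesicles and transmitter release fell in 16 of 23 cases and rose in 1 (median -0.86), against 1 higher and 13 lower of 25 in the test against unligated rats. Vamp1, a vesicle fusion protein, had 273, 176, 354 and 249 in ipsi and 989, 1074, 1010.0 and 1129 in contra pools (log2 change -2.01 ± 0.16 SE, adjusted p = 9.95e-05). Nptx1, a secreted pentraxin of synapses, had 17.7, 1.41, 23.00 and 14.6 in ipsi and 160.3, 73.2, 98.4 and 87.6 in contra pools, and Rab3a, which steers vesicles to release, had 205, 129.6, 202 and 220.3 in ipsi and 576, 464, 419.8 and 493 in contra pools. Syt4, a synaptotagmin, was the member that rose (0.95).

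Other large falls were in genes outside these families. Dpysl4, a relative of the growth cone protein CRMP2, had 17.2, 31.6, 12.1 and 13.7 in ipsi and 116, 241, 126 and 289 in contra pools (log2 change -2.98 ± 0.23 SE, adjusted p = 8.48e-05). Ifitm10, a membrane protein of the interferon-induced transmembrane family, had 10.4, 9.85, 15.4 and 9.46 in ipsi and 164, 173, 110.3 and 156 in contra pools (log2 change -3.19 ± 0.20 SE, adjusted p = 4.2e-05). Vsnl1, a neuronal calcium sensor, had 33.6, 7.29, 46.3 and 17.9 in ipsi and 183, 141, 227 and 175 in contra pools. Iapp, amylin, a peptide related to CGRP, had 2.38, 2.84, 2.89 and 2.19 in ipsi and 32.9, 42.2, 30.02 and 37.8 in contra pools, so that all 4 ipsi signals lay below the pseudocount. Iapp therefore entered the test through its contra pools alone, which fixed the order of its sides. Tmem150c had 22.6, 19.2, 18.03 and 21.2 in ipsi and 108, 102, 140.1 and 97.7 in contra pools, and Phyhipl had 151, 70.7, 241 and 173 in ipsi and 620.0, 723, 650.4 and 756 in contra pools.

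Of the genes of transmitter and growth factor receptors, the shares that rose stand beside 14.3% of all genes and the shares that fell beside 12.7%. Of the GABA genes 1 of 7 was higher, Gabra5, and 3 were lower, against 0 higher and 2 lower of 8 in the test against unligated rats. Gabra5 lost its call without the SNL L6 pair (0.70, adjusted p = 0.068) or the SNL with GPN L6 pair (1.05, adjusted p = 0.0566). Gabra2, which fell, lost its call without the SNL L5 pair (-0.61, adjusted p = 0.0663), the SNL with GPN L5 pair (-0.39, adjusted p = 0.134) or the SNL with GPN L6 pair (-0.51, adjusted p = 0.102). Gabbr2, a subunit of the metabotropic GABA-B receptor, had 108, 127, 120.0 and 106 in ipsi and 244, 275, 258 and 302 in contra pools (log2 change -1.19 ± 0.11 SE, adjusted p = 0.000201). Of the glutamate receptor genes 1 of 12 was higher, Grik2, and 3 were lower, against 0 higher and 1 lower of 15 in the test against unligated rats. Grik2 lost its call without the SNL L5 pair (0.79, adjusted p = 0.106), the SNL with GPN L5 pair (0.74, adjusted p = 0.1) or the SNL with GPN L6 pair (0.94, adjusted p = 0.0668). Grik3, which fell, lost its call without the SNL L5 pair (-0.87, adjusted p = 0.0912), the SNL L6 pair (-0.83, adjusted p = 0.0908) or the SNL with GPN L5 pair (-1.10, adjusted p = 0.0505). Grik1, a kainate receptor subunit of nociceptors, had 13.4, 2.45, 13.99 and 9.996 in ipsi and 63.1, 65.7, 71.5 and 105 in contra pools (log2 change -2.43 ± 0.24 SE, adjusted p = 0.000263). Of the trophic genes 3 of 15 were higher and 4 lower, against 3 higher and 4 lower of 15 in the test against unligated rats. Ret, the signalling receptor for GDNF family factors, had 222, 192, 269 and 288 in ipsi and 615, 440.3, 514 and 498 in contra pools (log2 change -1.08 ± 0.12 SE, adjusted p = 0.000498). Its co-receptors differed in sign: Gfra2 had a log2 change of -0.89, while Gfra3 (0.74) and Gfra1 (0.69) rose. Ngfr, the low-affinity neurotrophin receptor, had 439, 447, 507 and 514 in ipsi and 702, 761, 827 and 769 in contra pools, and Bdnf, a neurotrophin that nociceptors release, did not pass (-0.33, adjusted p = 0.182). Of the opioid and cannabinoid genes 1 of 5 was lower, the cannabinoid receptor gene Cnr1 (-0.90), which lost its call without the SNL L6 pair (-0.89, adjusted p = 0.0509). Against unligated rats that list had 0 higher and 0 lower of 7.

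Genes of antigen presentation, complement and macrophages were raised. Of the MHC class II genes 10 of 11 were higher in ipsi pools and 0 lower, with a median log2 change of 2.11, and 9 of 11 were higher in the test against unligated rats. Cd74, the invariant chain that guides class II molecules, had 1506, 1579, 1289.8 and 1415 in ipsi pools, against 72.6, 141, 86.1 and 126 in contra pools (log2 change 3.74 ± 0.15 SE, adjusted p = 4.16e-06). In unligated pairs Cd74 was 96.00, 109, 283 and 208 on the ipsi and 123, 95.6, 72.7 and 102 on the contra side. RT1-DMb, which helps load peptides, had 192, 316, 165 and 229 in ipsi and 10.4, 37.3, 9.19 and 32.7 in contra pools (log2 change 3.16 ± 0.18 SE, adjusted p = 3.46e-05). The class II chains RT1-Ba (2.35), RT1-Bb (2.46) and RT1-Da (2.33) rose, as did the protease gene Ctss (2.11) and the class II transactivator Ciita (0.66). RT1-DOa did not pass (-0.11). Of the 6 probe sets of Cd74, 5 passed upward and 0 downward.

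Complement genes were higher in 12 of 19 cases and lower in 1 (median 0.77, or 0.21 with no filter on low signals), against 10 higher and 1 lower of 21 in the test against unligated rats. C1qb and C1qa, chains of the C1q recognition molecule that macrophages make, both rose. C1qb had 314, 304, 296 and 328 in ipsi and 13.5, 47.8, 14.1 and 15.3 in contra pools (log2 change 3.62 ± 0.24 SE, adjusted p = 5.28e-05), and C1qa had 330.4, 409.6, 259 and 338 in ipsi and 76.8, 93.8, 60.7 and 42.99 in contra pools. C1s, a protease that acts with C1q, had 562, 411, 181 and 231 in ipsi and 44.7, 49.9, 37.9 and 41.6 in contra pools (log2 change 2.70 ± 0.21 SE, adjusted p = 9.64e-05). C1s was higher with vehicle than with GPN on both sides, and its side difference with GPN minus that with vehicle did not pass. C3, the central component, rose by 2.16 and Serping1, the C1 inhibitor, by 1.94 on the log2 scale. Cd55, which protects cells from complement, was the member that fell (-0.91). Cfd, a protease of the alternative pathway that fat cells also make, had 79.6, 163, 60.1 and 78.4 in ipsi and 5.34, 6.49, 4.59 and 37.1 in contra pools (log2 change 2.59 ± 0.38 SE, adjusted p = 0.00163).

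Macrophage markers rose in 13 of 17 cases and fell in 0 (median 1.61, or 1.03 with no filter on low signals), against 12 higher and 0 lower of 17 in the test against unligated rats. Their summed signal was 3906 to 5485 in ipsi, 1467 to 1818 in contra and 1474 to 1910.0 in the 6 unligated ipsi pools. Aif1 (IBA1) had 97.9, 160.0, 79.6 and 85.5 in ipsi and 20.04, 35.4, 6.75 and 23.8 in contra pools (log2 change 2.10 ± 0.19 SE, adjusted p = 0.000183). Lyz2, macrophage lysozyme, had 1351, 2399.5, 1342 and 1451 in ipsi and 358, 512, 336 and 347 in contra pools (log2 change 2.04 ± 0.09 SE, adjusted p = 8.38e-06), with the SNL L6 pools highest on both sides. Tyrobp, an adaptor of activating receptors, had 93.01, 220.5, 91.4 and 97.2 in ipsi and 26.2, 49.1, 8.17 and 8.27 in contra pools. Cd68 rose by 0.999 and the receptor gene Csf1r by 1.67, while Cd14 (0.07), Cx3cr1 (0.40) and the pan-leukocyte gene Ptprc (-0.38) did not pass. Of the T and B cell markers 0 of 5 tested passed either way, and their summed signal was 291 to 437 in ipsi and 232 to 318 in contra pools. The part of the number of immune cells in these results was not tested.

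Chemokine and cytokine genes rose in 9 of 17 cases and fell in 1, against 4 higher and 0 lower of 17 in the test against unligated rats. At the deposited scaling 5 rose and 0 fell. Cxcl14 had 98.3, 111, 254 and 170.5 in ipsi and 22.6, 35.9, 17.6 and 17.4 in contra pools (log2 change 2.44 ± 0.30 SE, adjusted p = 0.000662), and Tgfb1, a cytokine that restrains inflammation, had 72.1, 38.1, 43.5 and 56.3 in ipsi and 7.06, 7.95, 7.36 and 8.11 in contra pools (log2 change 2.08 ± 0.21 SE, adjusted p = 0.000303). Il1b (1.004), Il18 (0.95) and Ccl2 (0.57), mediators of inflammation, rose less. Csf1, a macrophage growth factor, was the member that fell (-0.47). Interferon response genes rose in 9 of 13 cases and fell in 0, against 4 higher and 0 lower of 13 in the test against unligated rats, and 5 rose at the deposited scaling. Mx2, an antiviral GTPase, had 199, 231, 200.3 and 257 in ipsi and 58.98, 92.97, 21.7 and 52.7 in contra pools (log2 change 2.03 ± 0.24 SE, adjusted p = 0.000597), and Ifitm3 had 825, 673, 569 and 638 in ipsi and 274, 206, 273 and 194 in contra pools.

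Of the satellite glia markers 2 of 10 were higher and 5 lower (median -0.53), against 0 higher and 3 lower of 10 in the test against unligated rats. With median scaling 1 was higher and 3 were lower. At the deposited scaling 1 was higher and 5 were lower, and with L6 pools only 0 were higher and 4 lower. Fabp7, a fatty acid binding protein of these cells, had 34.3, 38.9, 37.03 and 20.7 in ipsi and 91.3, 75.9, 117 and 81.1 in contra pools (log2 change -1.34 ± 0.16 SE, adjusted p = 0.000666), whereas Gja1 (0.54), the gap junction protein connexin 43, and Glul (0.45), glutamine synthetase, rose. Apoe did not pass (-0.14). Of the myelin and Schwann cell genes 6 of 13 were higher and 0 lower (median 0.21), against 2 higher and 0 lower of 13 in the test against unligated rats. At the deposited scaling 3 were higher, and without the SNL with GPN L5 pair 3. Egr2, the transcription factor of myelination, had 165, 165, 264 and 287 in ipsi and 62.6, 62.8, 73.6 and 84.7 in contra pools (log2 change 1.52 ± 0.13 SE, adjusted p = 0.000119). Its GPN pools lay above its vehicle pools on both sides, and its side difference with GPN minus that with vehicle did not pass. Of the genes of repair Schwann cells 2 of 7, Jun and Mcam, were higher and 1, Ngfr, lower, against 1 higher and 1 lower of 7 in the test against unligated rats. The structural myelin genes Pmp22 (0.13), Mbp (-0.08) and Prx (0.15) did not pass. Cholesterol synthesis, on which myelin depends, had 3 of 18 genes lower and 0 higher, beside 12.7% of all genes lower and 14.3% higher. In the test against unligated rats 0 of 18 were higher and 2 lower. Cyp51, 1 of its enzymes, had 399, 393, 354 and 362 in ipsi and 599, 636, 634 and 531 in contra pools. Of the 5 probe sets of Cyp51, 2 passed.

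Extracellular matrix genes rose in 21 of 29 cases and fell in 0 (median 0.89), and 12 of 29 were higher in the test against unligated rats. Mgp, matrix Gla protein, an inhibitor of calcification, had 3452, 3164, 1333 and 1892 in ipsi and 687, 578, 499.7 and 393 in contra pools (log2 change 2.10 ± 0.16 SE, adjusted p = 8.28e-05). Fn1, fibronectin, had 845, 633, 465 and 546 in ipsi and 162, 182, 144 and 179 in contra pools (log2 change 1.83 ± 0.14 SE, adjusted p = 7.29e-05). Both genes were highest in the SNL L5 ipsi pool. Col5a2 (1.75) and Col3a1 (1.39), fibrillar collagens, and Mmp2 (1.68), a matrix protease, rose too. Markers of fibroblasts and epithelial barriers rose in 5 of 9 cases (median 1.24), against 2 higher and 0 lower of 10 in the test against unligated rats. Their median was 0.51 with no filter on low signals and 0.66 with quantile normalization over the 8 pools. Their summed signal was 2183 to 4459.6 in ipsi and 1122 to 1411 in contra pools. Cldn1, a tight junction protein of the sheath around nerves, had 154, 63.6, 46.8 and 55.8 in ipsi and 24.3, 11.6, 24.7 and 6.22 in contra pools (log2 change 1.86 ± 0.26 SE, adjusted p = 0.00137). Endothelial and pericyte markers rose in 4 of 13 cases, against 2 higher and 0 lower of 14 in the test against unligated rats, led by the smooth muscle genes Tagln (1.51) and Acta2 (1.31), while Pecam1 (0.41) and Kdr (-0.12) did not pass. The part of sheath and vessel tissue in these results was not tested.

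Cell cycle genes rose in 9 of 18 cases and fell in 0, against 4 higher and 0 lower of 18 in the test against unligated rats. Mki67, a mark of dividing cells, had 30.3, 81.9, 35.2 and 45.4 in ipsi and 20.6, 19.8, 15.8 and 22.5 in contra pools (log2 change 1.04 ± 0.23 SE, adjusted p = 0.0113), and Ccnd1, cyclin D1, had 236, 129.9, 328 and 335 in ipsi and 124, 94.1, 143 and 100.1 in contra pools, with the lowest ipsi pool at SNL L6 inside the contra range. Immediate-early genes rose in 10 of 16 cases and fell in 0, against 5 higher and 0 lower of 16 in the test against unligated rats, and 6 rose at the deposited scaling. Egr1 had 602, 683, 432 and 505 in ipsi and 264, 244, 229 and 209 in contra pools (log2 change 1.20 ± 0.11 SE, adjusted p = 0.000193), and 2 of its 4 probe sets passed. Fos rose by 0.75 and Junb by 0.68 on the log2 scale, while Arc (-0.32), a gene of synaptic activity, did not pass. Heat shock and stress genes had 3 of 16 higher and 3 lower, beside 14.3% of all genes higher and 12.7% lower. In the test against unligated rats 2 of 16 were higher and 2 lower. Hspb1, a small heat shock protein that protects injured neurons, had 2107, 2329.7, 2444 and 2987 in ipsi and 1494.95, 1377, 1980.4 and 1672 in contra pools (log2 change 0.60 ± 0.10 SE, adjusted p = 0.00364), and Mt3, a metallothionein of the nervous system, had 491, 330.0, 588 and 478 in ipsi and 1315, 1451, 1387 and 1361 in contra pools (log2 change -1.56 ± 0.14 SE, adjusted p = 0.000168).

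**Figure D3:**
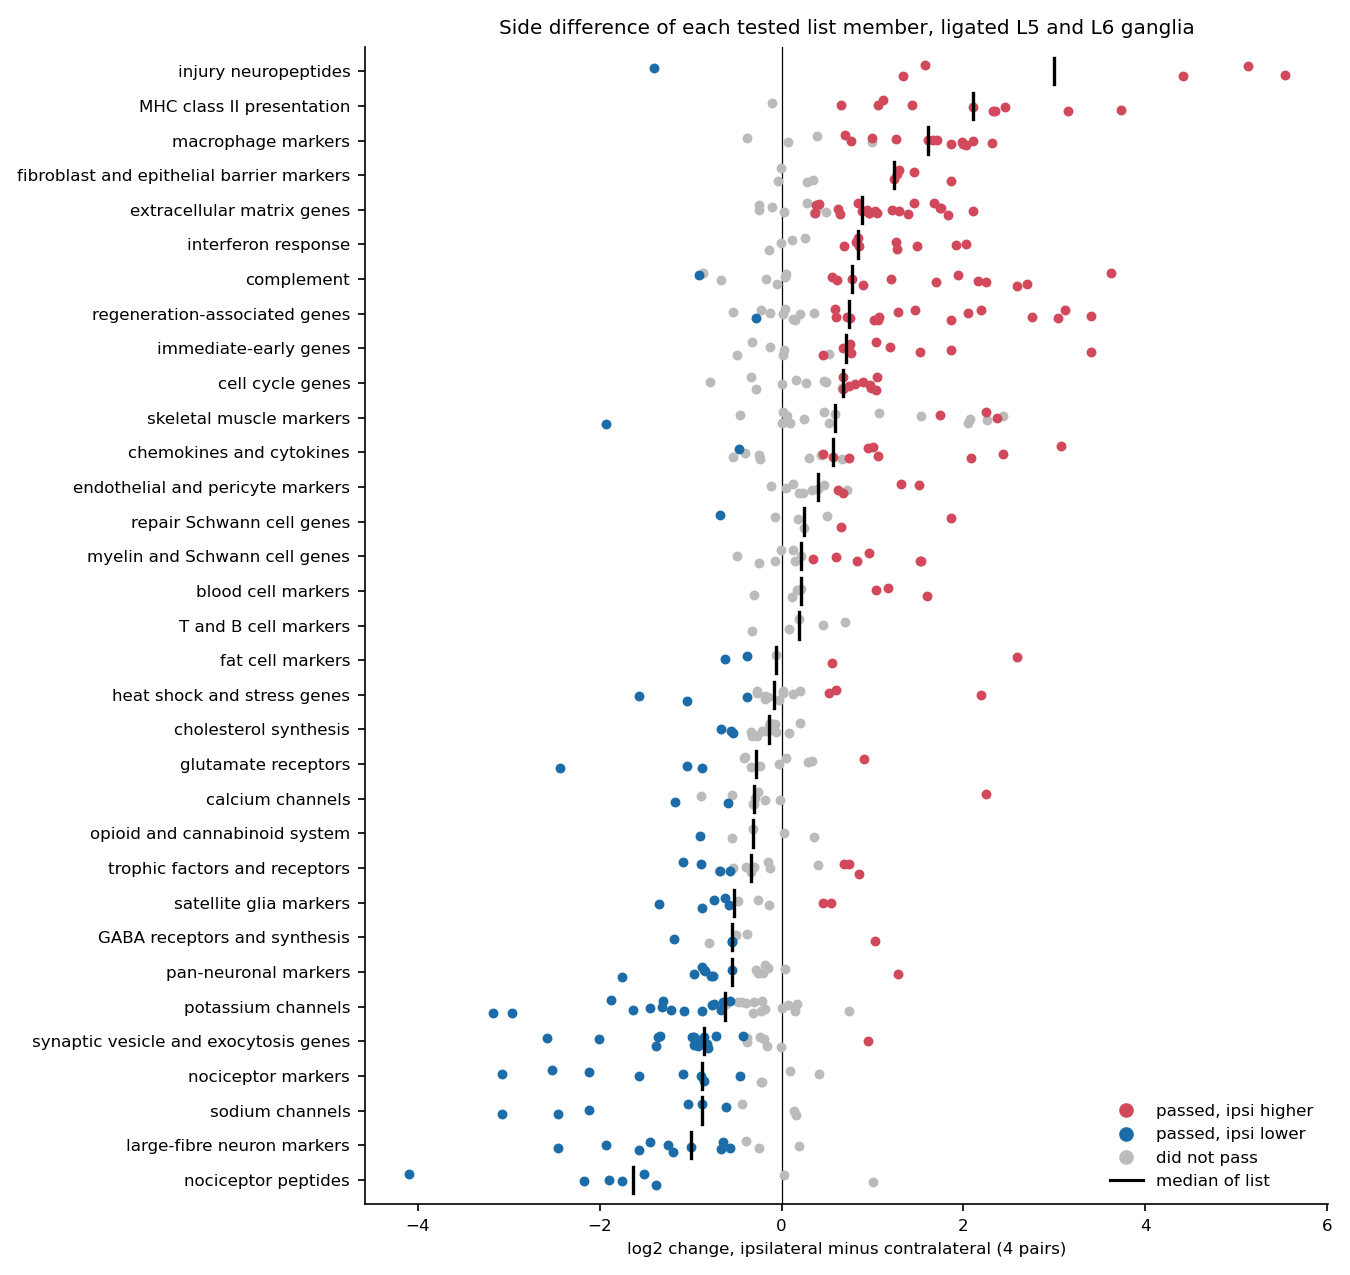
Each point is a tested gene of 1 of 33 lists, placed by its log2 change of ipsi minus contra over the 4 ligated pairs, red where it passed upward, blue where it passed downward and grey where it did not pass, with the list median as a black bar. Medians run from -1.63 for nociceptor peptides to 3.00 for injury neuropeptides, whose median was 1.397 at the deposited scaling.

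Transcripts of skeletal muscle, which lies beside the ganglia, were high in the ipsi L5 pools of ligated rats. The summed signal of the muscle list was 1812 to 13821 in ipsi and 2426 to 2724 in contra pools, and 2181 to 10626 in the 6 unligated ipsi pools. Ckm, muscle creatine kinase, had 672, 82.1, 1878 and 57.7 in ipsi and 33.7, 86.7, 58.6 and 91.7 in contra pools, so that the 2 L5 ipsi pools were high and the 2 L6 ipsi pools lay within the contra range. Its log2 change over the 4 pairs was 2.07 and did not pass (adjusted p = 0.106), and with L6 pools only it was -0.35. Ckm was also 802 in the naive L5 ipsi pool and 1211 in the SNL L4 ipsi pool. Of the muscle genes 3 of 19 passed upward, namely Myl11 (2.25), Tnnc2 (2.37) and Tpm2 (1.75), and Pvalb downward. The upward count is near the share of all genes that passed upward, 14.3%, and 12.7% of all passed downward. In the test against unligated rats the muscle list had 0 higher and 0 lower of 22. At the deposited scaling 10 passed upward, and without the SNL with GPN L6 pair 8. With L6 pools only, 0 passed upward and the list median was 0.15. Myl11 and Tpm2 lost their calls without the SNL L5 pair (1.86, adjusted p = 0.13, and 1.55, adjusted p = 0.0947) and without the SNL with GPN L5 pair (1.397, adjusted p = 0.125, and 1.16, adjusted p = 0.108). Tnnc2 lost its call without either of these pairs too (1.93, adjusted p = 0.124, and 1.55, adjusted p = 0.13), and both Tpm2 (1.88, adjusted p = 0.0692) and Tnnc2 (2.72, adjusted p = 0.0624) lost it without the SNL L6 pair.

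With L6 pools only, the medians of the leading lists were 3.18 for injury neuropeptides, -1.998 for nociceptor peptides, 1.97 for MHC class II genes and 1.59 for macrophage markers. Blood cell markers passed upward in 3 of 7 cases, Pf4 (1.596), S100a8 (1.18) and S100a9 (1.04), while the globin gene Hbb (0.21) did not pass. Against unligated rats the count was 1 higher and 0 lower of 7. S100a9, a calcium-binding protein of neutrophils, had 171, 700.1, 147 and 166 in ipsi and 44.9, 240.4, 73.8 and 181 in contra pools, with the SNL L6 pool highest on both sides. S100a8 and S100a9 lost their calls without the SNL L5 pair (0.67, adjusted p = 0.104, and 0.78, adjusted p = 0.0813), without the SNL L6 pair (1.10, adjusted p = 0.143, and 0.88, adjusted p = 0.102) and without the SNL with GPN L5 pair (1.34, adjusted p = 0.0726, and 1.07, adjusted p = 0.0636). Of the 2 tested probe sets of S100a8, 1 passed and the other had a log2 change of -0.08. Of the fat cell markers 2 of 5 tested passed upward, Cfd and Cidea, and 2 downward, Scd and Lep, while the defining marker Adipoq was too low to be tested. Cidea lost its call without the SNL L5 pair (0.52, adjusted p = 0.0684) or the SNL with GPN L6 pair (0.52, adjusted p = 0.0567). Lep lost it without the SNL L5 pair (-0.37, adjusted p = 0.0915), the SNL L6 pair (-0.35, adjusted p = 0.0943) or the SNL with GPN L5 pair (-0.33, adjusted p = 0.104). Of the 2 tested probe sets of Lep, 1 passed and the other had a log2 change of 0.15. Against unligated rats the list had 0 higher and 1 lower of 5.

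The side difference at L5 minus that at L6 passed for 4 of 16155 probe sets (0.0248%). They belong to the muscle genes Myh4 (log2 difference 6.12) and Ckm (4.83), to Sst (2.20), and to a probe set without a single gene symbol (-2.005). With the SNL and SNL with GPN pools in that order, Sst was 62.98 and 67.4 in ipsi L5 pools and 6.42 and 11.1 in ipsi L6 pools (adjusted p = 0.0426). Scg2 (1.66), Scn11a (1.61), Htr3a (1.53), Calca (1.16) and Scn10a (1.001) had L5 minus L6 differences of the same sign, which did not pass (adjusted p = 0.228, 0.124, 0.1, 0.236 and 0.317 in that order). Atf3 (-0.60) and Npy (0.01) did not pass. With no filter on low signals 0 probe sets passed, and at the deposited scaling 55 did.

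**Figure D4:**
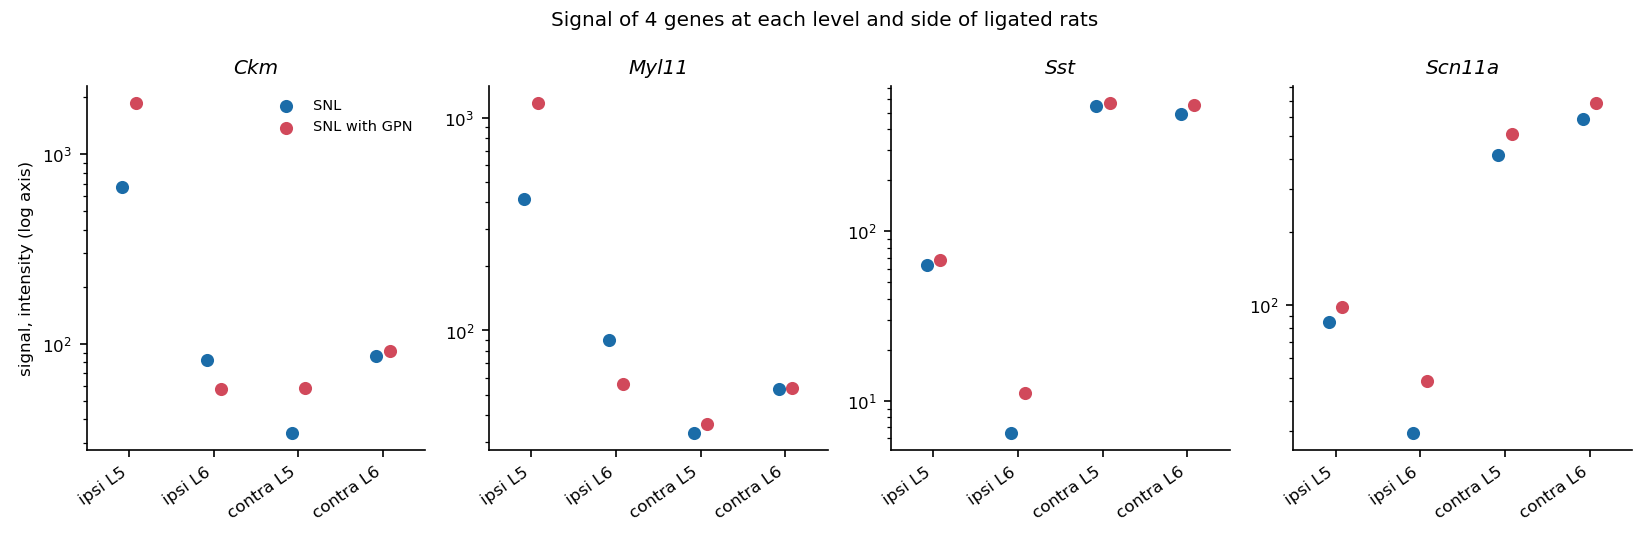
Signal (log axis, each panel with its own range) of Ckm, Myl11, Sst and Scn11a at each level and side of ligated rats, with 1 point for SNL and 1 for SNL with GPN. The muscle genes Ckm and Myl11 were high in the ipsi L5 pools, and Sst and Scn11a were lower in the ipsi L6 than in the ipsi L5 pools.

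The side difference with GPN minus that with vehicle passed for 0 of 16155 probe sets (0%), where limma gave 886 with an unadjusted p under 0.05 and a lowest adjusted p of 0.146, and 39 passed at the deposited scaling. Each treatment was 1 set of rats, so the drug and the set of animals cannot be told apart. The log2 difference was 0.30 ± 0.38 SE for Npy, -0.04 ± 0.30 for Atf3, -0.23 ± 0.30 for Cd74 and 0.16 ± 0.86 for Sst. Larger differences that did not pass were those of Cxcl14 (1.52), S100a8 (-1.76) and S100a9 (-1.250).

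The L4 ganglion of the same treatments, whose spinal nerve was not tied, gave a second contrast with 2 pairs. Its sides differed in 0 of 16364 probe sets (0%), where limma gave 745 with an unadjusted p under 0.05 and a lowest adjusted p of 0.314, and 17 passed at the deposited scaling. In the order SNL and SNL with GPN, Npy was 807 and 508 in ipsi L4 and 82.8 and 97.8 in contra L4 pools (log2 change 2.75 ± 0.23 SE). Gal was 340.0 and 207 in ipsi and 34.1 and 64.9 in contra L4 pools, and Atf3 was 235 and 126 in ipsi and 39.2 and 47.5 in contra L4 pools. All 3 were higher in both ipsi L4 pools, and none passed. Cacna2d1 was 175 and 141 in ipsi and 67.2 and 74.2 in contra L4 pools, and Cd74 was 581 and 285 in ipsi and 162 and 105 in contra L4 pools. Sst was 219 and 317 in ipsi and 455 and 474 in contra L4 pools, and Calca, at 1219.7 and 1404 in ipsi and 1002 and 1126 in contra L4 pools, had a log2 change of 0.30, of the opposite sign to that at L5 and L6. The median was 1.63 for injury neuropeptides and 0.08 for nociceptor peptides. Of the 74 genes over 4-fold at the tied levels 61 were tested at L4, and 57 of these had the same sign there. How often all genes tested kept their sign at L4 was not counted, so the 57 have no background to be read against.

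The side difference at L5 and L6 minus that at L4 passed for 226 of 16987 probe sets (1.33%), 93 upward and 133 downward, and for 118 at the deposited scaling, 31 upward and 87 downward. Genes past this test included Npy (log2 difference 2.78, adjusted p = 0.0204), Vip (2.72, 0.0165), Cd74 (2.14, 0.0165), Kcns1 (-2.76, 0.00973) and Scn1a (-2.35, 0.00973). Ucn, the stress peptide urocortin, had 52.99, 109.6, 49.2 and 91.00 in ipsi and 7.48, 5.05, 8.54 and 5.75 in contra pools of L5 and L6, and its difference from L4 was 2.96 (adjusted p = 0.0304). These contra signals were so low that Ucn entered the test of the sides at L5 and L6 through its ipsi pools alone, which fixed their order. Atf3 (1.54, adjusted p = 0.0578) and Cacna2d1 (1.16, adjusted p = 0.0609) did not pass. The comparison shares the L5 and L6 pools with the contrast of the 2 sides at those levels.

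**Figure D5:**
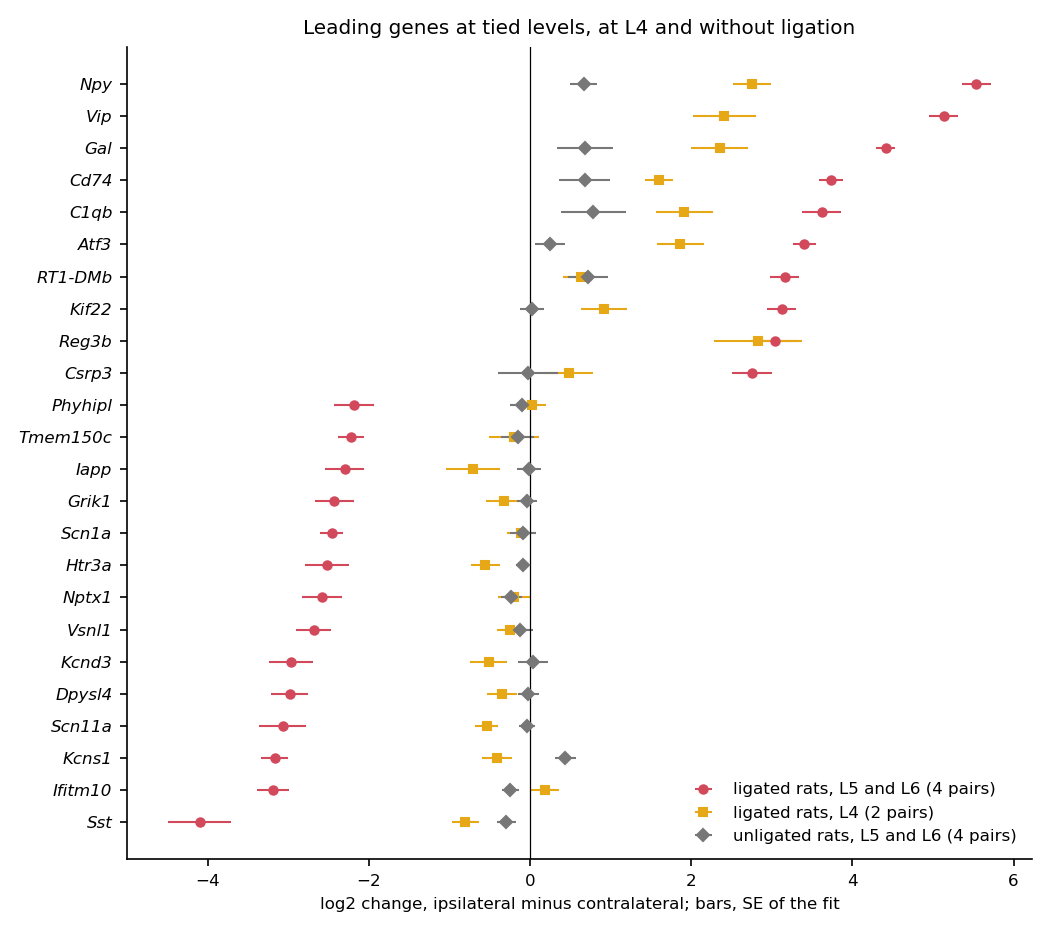
Log2 change of ipsi minus contra (bars, SE of the fit) for those of the 14 largest rises and 14 largest falls that were tested at L4: red circles, L5 and L6 of ligated rats (4 pairs); yellow squares, L4 of ligated rats (2 pairs); grey diamonds, L5 and L6 of unligated rats (4 pairs). Npy stood at 5.54, 2.75 and 0.66, and Scn1a at -2.46, -0.11 and -0.09, in that order.

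The opposite ganglia, which serve as the comparator, were also set against the contra ganglia of unligated rats. They differed in 0 of 16075 probe sets (0%), where limma gave 820 with an unadjusted p under 0.05 and a lowest adjusted p of 0.969, and 0 passed at the deposited scaling. The log2 difference, contra of ligated minus contra of unligated rats, was -0.57 ± 0.24 SE for Npy, -0.11 ± 0.13 for Atf3, -0.24 ± 0.19 for Cacna2d1 and -0.13 ± 0.16 for Sst. Over all probe sets tested the median absolute log2 difference was 0.12 between these contra groups.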

How the data were processed

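Total RNA of each pool was hybridised to Affymetrix rat U34 A, B and C arrays, 1 array of each per pool. The deposited intensity values are linear MAS5 signals made by the authors, per the submitters' processing notes. Its version, its target for scaling and the detection calls were not stated there or in any header. All 156 columns were mapped to samples by their titles.

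Arrays of the 28 DRG pools were quantile normalized within each array set, because 2% trimmed means differed by over 1.25-fold. Signals were then taken as log2(signal + pseudocount), with the 20th percentile of the set as pseudocount (5.8, 4.5 and 6.2 on A, B and C), so changes of low genes are understated. Probe sets entered a test where 4 or more pools (2 for L4) had a signal above the array's 40th percentile. A gene under that percentile in all 4 ligated pools of 1 side entered only through the other side. Lack of overlap was then fixed by the filter. limma 3.58.1 in R 4.3.3 (lmFit, eBayes with a mean-variance trend) was fitted with the pair as a block, two-sided, with Benjamini-Hochberg adjustment over all probe sets tested and a threshold of 0.05. The comparison of contra pools had level as a covariate and no block. The pairing follows the treatment and level in the titles.

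Of 26379 probe sets, 18178 had 1 gene symbol, 391 several and 7633 none, and 177 were controls. Symbols were updated through RefSeq for 18122, giving 10969 genes, and the brightest probe set stood for its gene. Not every tested probe set of a named gene passed, as for Ngfr (1 of 2) and Cxcl14 (2 of 3). No 2 DRG arrays of a set held the same values. Named genes were the 14 largest rises and 14 largest falls with 1 sign in all 4 pairs, up to 4 leading members of each of 33 lists, the 4 markers and the leading genes of the other comparisons. Members quoted beside these, mostly ones that did not pass, were chosen after their values were seen. The samples and lists were chosen with earlier results of these data known. The model was tested on simulated data. Alternatives covered scaling, filter, pseudocount, trend, block and left-out pairs.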

Additional observations from a re-analysis of the deposited data

Results flagged for a closer look

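Among 252 groups of 4 pools (126 named genes on 2 sides), 16 held a pool far from the other 3 by Dixon's criterion, which chance gives in about 1 of 20 groups. In the SNL L6 ipsi pool Lyz2 stood high at 2399.5, S100a9 at 700.1 and Tyrobp at 220.5, and Kcns3 low at 44.6. In the SNL L6 contra pool Lyz2 was high at 512.1, C1qb at 47.8 and Cldn11 at 120.2. In the SNL L5 ipsi pool Cldn1 (153.8) and Cdh5 (107.9) were high, and Cdh5 was high in the SNL L5 contra pool too (59.1). In the SNL with GPN L5 ipsi pool Pvalb (592.9), Tpm2 (542.1) and Ifitm10 (15.4) were high. In the SNL with GPN L6 contra pool Cfd (37.1), Gbp2 (15.9) and Reg3b (13.5) were high. The cause was not tested for any of them.

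The side difference differed between L5 and L6 for 4 probe sets, by a log2 difference (L5 minus L6) of 6.1188 for Myh4, 4.8332 for Ckm, 2.2019 for Sst and -2.0048 for a probe set without a single gene symbol. Myh4 and Ckm are genes of skeletal muscle, whose listed genes were high in both ipsi L5 pools. The part of muscle tissue in the difference of Sst was not tested.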

How the results depend on the processing

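The ipsi minus contra count of 4165 probe sets was 2546 with signals as deposited, 3258 with median scaling, 3554 with no filter, 3614 with no mean-variance trend and 4122 to 4246 under other pseudocounts. It was 4292 with no replicate block, 3937 with L5 and L6 averaged per treatment and kept as a replicate block, and 2845 to 3473 without 1 pair. Fewer pools gave 2486 with L5 pools only, 2251 with L6 pools only, 2101 with vehicle only and 1833 with GPN only. The unligated count was 0 in every setting run.

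The ligated minus unligated count of 1741 was 277 with signals as deposited (171 higher, against 835 of 1741), 986 with median scaling, 1474 with no replicate block and 1030 to 1487 without 1 pair. It was 1030 without the SNL L6 pair, 1160 without the SNL L5 pair and 1101 without the naive with GPN L6 pair. With signals as deposited, the count was 55 for L5 minus L6, 39 for GPN minus vehicle, 17 at L4 and 118 for L5-L6 minus L4. With no filter on low signals it was 0 for L5 minus L6 and 77 for L5-L6 minus L4. The cause of these shifts was not tested. The log2 change of Ckm turned to -0.347 with L6 pools only. Of 126 named genes, 6 to 12 lost their call without 1 pair, 8 with signals as deposited and 22 with L6 pools only. Median log2 change over all probe sets tested was -0.03, or -0.06 as deposited.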
